A study of Bos taurus with 30 samples.

Results

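Chaperone and protein folding genes were followed in the bovine corpus luteum, the ovarian gland that secretes progesterone after ovulation and that prostaglandin F2α (PGF2α) makes regress once it is mature. The members were the genes whose platform symbol belongs to the HSPA, HSPB, HSPD, HSPE, HSPH, HSP90, DNAJ, PDIA or CCT series, together with CALR, CANX, ATF4, DDIT3, HERPUD1 and SEL1L. This gave 62 genes of 9155 named on the array, each read from its probe set of highest mean signal. By the known location of the protein, 29 act in the cytosol, 16 in the endoplasmic reticulum (ER) and 6 in mitochondria, and 11 act elsewhere or are transcription factors. HSPBP1 and HSPBAP1 entered by the start of their symbols, since they bind heat shock proteins and are not chaperones themselves. XBP1, ATF6, PDIA6, HSPA1B and CCT7 were not analysed here.

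Luteal tissue came from 30 Angus crossbred heifers, with 5 heifers in each of 6 groups and 1 Affymetrix GeneChip Bovine Genome Array per heifer. On day 11 of the estrous cycle, the mid-cycle gland, tissue was taken at 0, 4 and 24 h, and on day 4, the early gland, it was taken at the same 0, 4 and 24 h. The 4 h and 24 h animals had been injected with PGF2α and the 0 h controls with saline. No saline animals were sampled at 4 h or 24 h, so an effect of PGF2α and a change with time alone cannot be told apart. The labels name no genotype, transgene or batch, and every group shared the breed and the tissue.

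Chaperones bind unfolded proteins and release them folded, mostly by cycles of ATP hydrolysis that partner proteins tune. In the cytosol HSP70 works with J-proteins, which deliver clients, and with nucleotide exchange factors, which release them, while HSP90 matures kinases and steroid receptors and the ring complex TRiC folds actin and tubulin. In the ER, BiP (HSPA5), GRP94 (HSP90B1), the lectins calreticulin and calnexin and the protein disulfide isomerases fold secreted and membrane proteins, and their genes are induced together when unfolded protein accumulates there. In mitochondria, mortalin (HSPA9) draws in imported chains and the HSP60 and HSP10 pair (HSPD1, HSPE1) folds them, among them the enzymes that a steroid-making cell keeps there.

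Values are log2 signals as deposited, and differences are between group means, with the standard error (SE) of a limma fit over all arrays. A gene was called at a Benjamini-Hochberg adjusted p under 0.05 over all 24016 probe sets. Array medians lay between 6.01 and 6.16, and the median SD within groups was 0.17 for the members and 0.20 for all probe sets. HSPB3 was the only member with a mean signal (2.83) under the 30th percentile of all probe sets (4.498). The array of day 4, 24 h replicate 1 lay closer to the mean of the day 4, 0 h group (distance 0.244) than to that of its own group (0.336), and the array of day 11, 4 h replicate 1 had the lowest weight in the fit with array weights (0.318). Results that rest on these arrays are given with and without them. In day 11, 4 h replicate 1 the 3' minus 5' control signal was -1.40 for EF1A and 0.09 for GAPDH. The other arrays ran from -2.64 to -2.10 and from 0.22 to 0.61, while its actin value of 2.04 lay within their range. The bearing of this on its chaperone signals was not tested. The 5 luteal steroidogenic markers, STAR, CYP11A1, HSD3B1, LHCGR and PTGFR, averaged between 9.83 and 12.23 over the 30 arrays.

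**Figure D1:**
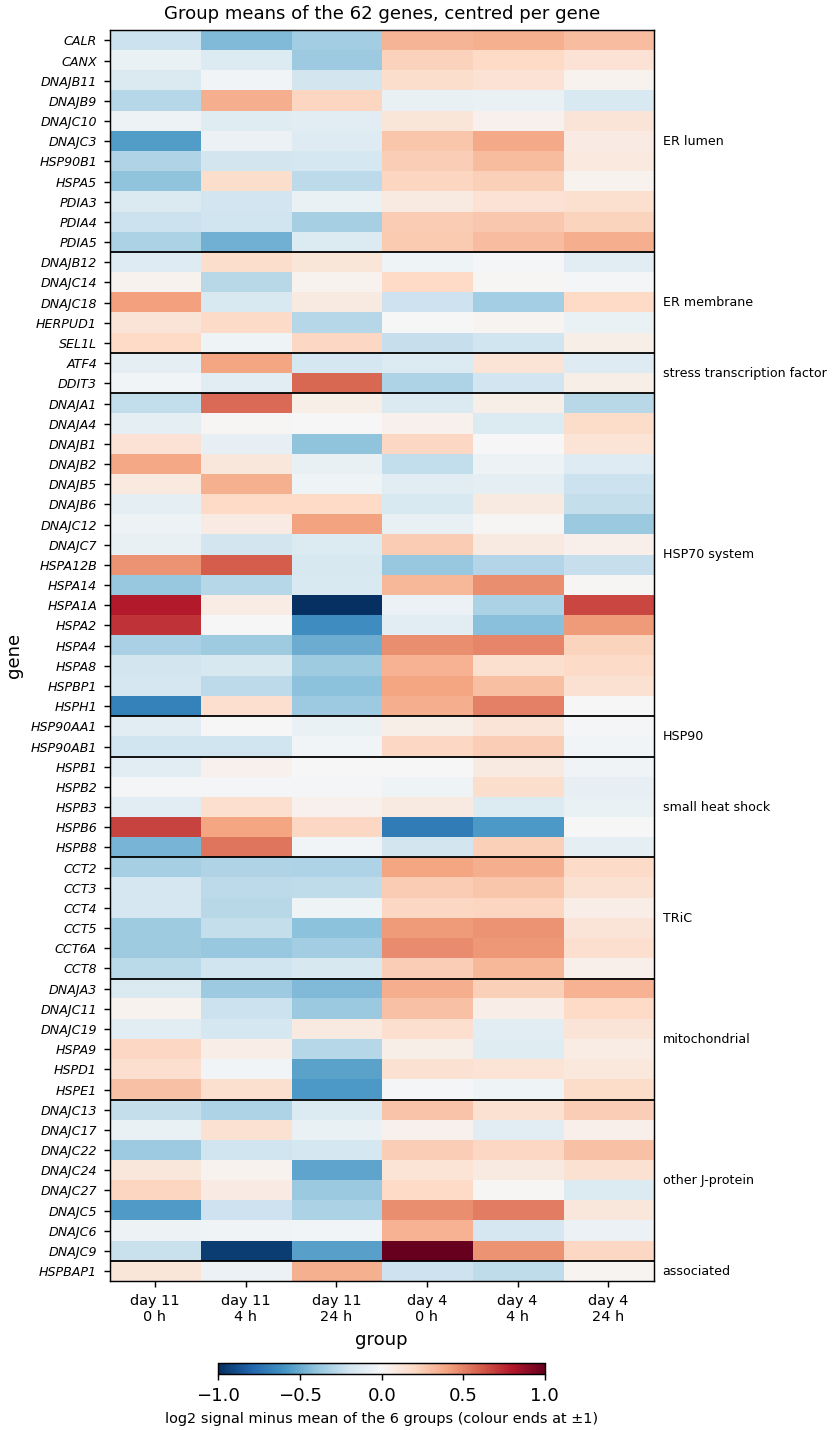
Mean log2 signal of each of the 62 genes in the 6 groups, with the mean of the 6 groups subtracted per gene (colour scale from -1 to 1, genes by class and name). Most genes of the ER lumen and TRiC classes are bluer at day 11, 0 h than at day 4, 0 h, and HSPD1 and HSPE1 are darkest blue at day 11, 24 h.

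The untreated glands of the 2 days were compared first, to describe the tissue that the hormone reached. On day 11 the folding machinery of the ER lumen and of the TRiC ring was lower than on day 4, and no gene of either class was higher. Of the 62 members, 28 were lower on day 11, or 45.2%, against 26.5% of all named genes. Only 9 were higher, or 14.5%, against 17.9% of all named genes. The median difference was -0.22 over the members and -0.02 over all named genes. By compartment, 14 of 29 cytosolic genes were lower and 5 higher, 9 of 16 ER genes were lower and 2 higher, and 2 of 6 mitochondrial genes were lower and 1 higher.

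HSPA5, the HSP70 of the ER that also holds the stress sensors silent, had signals of 11.65, 11.64, 11.59, 11.77 and 12.04 on day 11 and of 12.46, 12.35, 12.33, 12.33 and 12.32 on day 4. Every day 11 value lay below every day 4 value, with a difference of -0.62 ± 0.10 (SE; adjusted p = 1.5e-05), or 1.54-fold. HSP90B1, the HSP90 of the ER, had 12.01, 12.15, 12.15, 12.06 and 12.29 on day 11 and 12.70, 12.78, 12.63, 12.61 and 12.66 on day 4. These groups did not overlap either, and the difference was -0.55 ± 0.08 (SE; adjusted p = 4.6e-06).

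DNAJC3, a J-protein partner of HSPA5 that also restrains the kinase PERK, differed most within the class, by -0.83 ± 0.13 (SE; adjusted p = 1.1e-05). Its signal averaged 8.67 ± 0.28 on day 11 and 9.51 ± 0.08 on day 4 (SD, n = 5). In all, 9 of 11 ER lumen genes were lower, with a class median of -0.47. Beside those named, these were PDIA5 (-0.58), CALR (-0.55), PDIA4 (-0.47), DNAJB11 (-0.32), CANX (-0.30) and PDIA3 (-0.24). Calreticulin and calnexin hold newly made glycoproteins, PDIA3, PDIA4 and PDIA5 form disulfide bonds and DNAJB11 hands clients to HSPA5. The J-proteins DNAJB9 (-0.21) and DNAJC10 (-0.17) did not pass the test. The calls of CALR (adjusted p = 0.042) and PDIA3 (adjusted p = 0.042) were lost with quantile normalization, at an adjusted p of 0.067 and 0.14.

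The 5 genes of the ER membrane did not move with those of the lumen. SEL1L, the adaptor of the ligase that marks misfolded ER proteins for degradation, was higher on day 11 by 0.43 ± 0.08 (SE; adjusted p = 8.3e-05), without overlap between the groups. DNAJC18, a J-protein of the ER membrane, was higher by 0.62 ± 0.11 (SE; adjusted p = 5.3e-05). HERPUD1 (0.14), DNAJB12 (-0.08) and DNAJC14 (-0.16) did not pass the test.

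All 6 TRiC subunits among the members were lower on day 11, with differences between -0.83 and -0.38 and a median of -0.62. CCT6A had signals of 10.19, 10.21, 10.28, 10.14 and 10.25 on day 11 and of 11.02, 10.98, 11.20, 10.98 and 11.04 on day 4. The groups were separated by more than their whole range, with a difference of -0.83 ± 0.10 (SE; adjusted p = 3.3e-07). CCT5 (-0.78), CCT2 (-0.73) and CCT8 (-0.52) followed, and CCT3 (-0.42) and CCT4 (-0.38) differed least. After centring each gene, the median of the 6 subunits lay between -0.42 and -0.22 in the day 11 arrays and between 0.26 and 0.43 in the day 4 arrays.

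Cytosolic HSP90 was lower as well, HSP90AB1, the constitutive form, by -0.40 ± 0.08 (SE; adjusted p = 0.00015) and HSP90AA1, the inducible form, by -0.16 ± 0.06 (SE; adjusted p = 0.047). The HSP90AA1 call was lost with quantile normalization (adjusted p = 0.12), while a second, dimmer probe set of that gene differed by -0.67. The HSP70 system split, with 6 of 16 genes lower and 4 higher. The lower ones held the exchange factors HSPH1 (-1.04), HSPA4 (-0.79) and HSPBP1 (-0.56), the ribosome-bound HSPA14 (-0.71), the constitutive HSP70 gene HSPA8 (-0.54) and the J-protein DNAJC7 (-0.33). A second, dimmer probe set of HSPA4 differed by -0.12. The higher ones were HSPA1A (0.85), the stress-inducible HSP70, whose probe sets disagree, HSPA2 (0.84), a relative best known from testis, HSPA12B (0.83), a distant relative of endothelial cells, and DNAJB2 (0.64), a J-protein that binds ubiquitin.

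HSPB6, a small heat shock protein of smooth muscle, was higher by 1.38 ± 0.40 (SE; adjusted p = 0.0075), the largest rise among the members. It had 8.84, 9.55, 8.12, 7.48 and 7.79 on day 11 and 7.05, 7.18, 6.48, 6.91 and 7.29 on day 4, so the groups did not overlap but the day 11 values were spread over more than 2 log2 units. HSPB1, HSPB2, HSPB3 and HSPB8 did not pass the test. DNAJC9, a histone chaperone of dividing cells, showed the largest fall, -1.29 ± 0.18 (SE; adjusted p = 1.7e-06), with 7.26 ± 0.20 on day 11 and 8.55 ± 0.12 on day 4 (SD, n = 5). DNAJC5, the cysteine string protein of secretory vesicles, was lower by 1.03 on the log2 scale, at 6.70 ± 0.18 on day 11 and 7.72 ± 0.20 on day 4 (SD, n = 5).

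The mitochondrial class was mixed at this point. HSPE1 was higher on day 11 by 0.31 ± 0.07 (SE; adjusted p = 0.00059), DNAJA3 (-0.51) and DNAJC19 (-0.27), both J-proteins of HSPA9, were lower, and HSPD1 (0.01), HSPA9 (0.15) and DNAJC11 (-0.25) did not pass the test. Among 28 called members followed through the alternatives, 23 calls held in all 18, and 5 (CALR, PDIA3, HSP90AA1, HSPA1A and HSPBAP1) were lost in 4 to 10 of them. Macrophage markers were higher on day 11 in 5 of 7 cases, with a mean level of 8.30 to 9.05 on day 11 arrays and of 7.21 to 7.34 on day 4 arrays. Endothelial markers were higher in 3 of 6, T and NK cell markers in 3 of 5 and luteal markers in 3 of 5, while neutrophil markers were lower in 2 of 3. Of 5 fibroblast markers 2 were lower and 1 higher, with a median difference of -0.27. Their part in the chaperone differences was not tested, and in bulk tissue fewer cells of a type and less RNA per cell cannot be told apart.

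**Figure D2:**
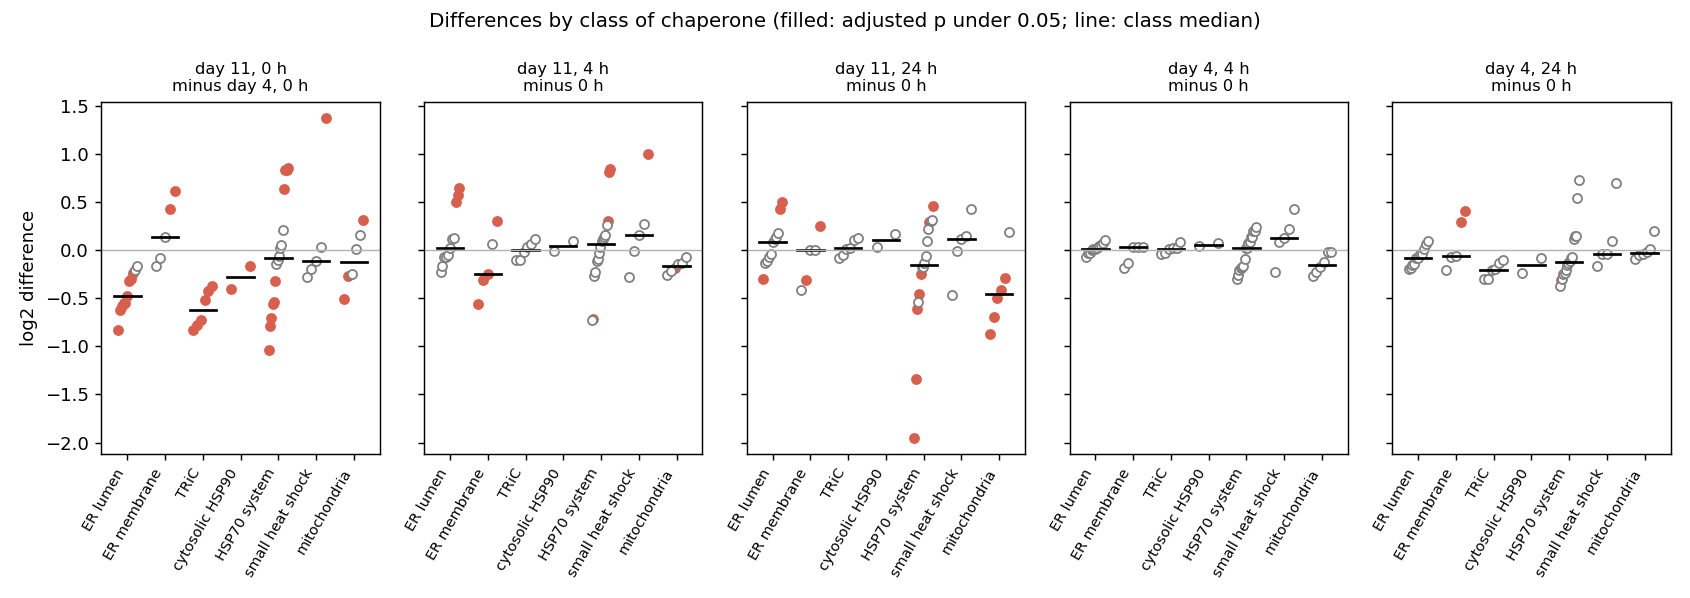
Log2 difference of each gene by class of chaperone for day 11 against day 4 at 0 h and for 4 h and 24 h against 0 h on each day (filled: adjusted p under 0.05, open: not called, line: class median). The ER lumen and TRiC medians lie at -0.47 and -0.62 in the comparison of days, and the mitochondrial median lies at -0.45 at day 11, 24 h.

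Other genes of the folding and stress pathways, taken from a list of 102 measured names, were compared in the same way. In the ER folding group 14 of 29 were lower (48.3%) and 3 higher (10.3%) on day 11. Among cytosolic co-chaperones and heat shock factors 15 of 29 were lower (51.7%) and 3 higher (10.3%). Of all named genes 26.5% were lower and 17.9% higher. FKBP11, an ER prolyl isomerase, differed by -1.46 (adjusted p = 1.5e-08), CRELD2, an ER protein induced by folding stress, by -1.28 (adjusted p = 1.7e-06) and CHORDC1, a co-chaperone of HSP90, by -1.23 (adjusted p = 2.6e-05). PHGDH, which starts serine synthesis, differed by -1.58 (adjusted p = 1.5e-06). The degradation genes had 5 of 14 lower (35.7%) and 2 higher (14.3%), near the shares of all named genes. The stress sensors and response genes had 3 of 22 lower (13.6%) and 7 higher (31.8%).

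The change from 0 h after PGF2α was then followed within each day, beginning with day 11 at 4 h. The genes that rose included HSPA5 and 2 of its J-proteins, the cytosolic partners HSPH1 and DNAJA1, the small heat shock gene HSPB8 and the transcription factor ATF4, while no TRiC, HSP90 or mitochondrial member was called higher. In all 10 members rose, or 16.1%, against 10.1% of all named genes, and 6 fell, or 9.68%, against 13.1% of all named genes. By compartment 4 cytosolic and 4 ER genes rose, and 1 cytosolic, 3 ER and 1 mitochondrial gene fell.

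HSPA5 had 12.24, 12.17, 12.36, 12.54 and 12.25 at 4 h, against 11.65, 11.64, 11.59, 11.77 and 12.04 at 0 h. The lowest 4 h value lay above the highest 0 h value, and the rise was 0.58 ± 0.10 (SE; adjusted p = 0.00011), or 1.49-fold. A second bright probe set of HSPA5 differed by 0.53 (adjusted p = 0.055). DNAJB9, a J-protein that HSPA5 uses at its stress sensor, had 10.03, 9.92, 10.37, 10.19 and 10.18 at 4 h, against 9.72, 9.54, 9.57, 9.23 and 9.41 at 0 h. These groups did not overlap, and the rise was 0.65 ± 0.18 (SE; adjusted p = 0.013).

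DNAJC3 rose by 0.50 ± 0.13 (SE; adjusted p = 0.0072), with 9.17 ± 0.27 at 4 h and 8.67 ± 0.28 at 0 h (SD, n = 5), and its groups overlapped because replicate 2 stayed at 8.71. The other 8 ER lumen genes did not pass the test, and the class median was 0.02, against -0.04 over all named genes. HSP90B1 differed by 0.11, PDIA4 by 0.02, CANX by -0.07 and CALR by -0.23. CALR had 9.98 in replicate 1 and 11.30 to 11.75 in the other 4 arrays at 4 h, against 11.24 to 11.70 at 0 h, and without replicate 1 it differed by 0.09. In the ER membrane class DNAJB12 rose by 0.30, while DNAJC18 (-0.56), DNAJC14 (-0.31) and SEL1L (-0.25) fell. Both dimmer probe sets of DNAJB12 differed little (0.06 and -0.03).

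DNAJA1, a J-protein that delivers clients to cytosolic HSP70, had 10.21, 10.45, 10.39, 10.40 and 10.48 at 4 h, against 9.84, 9.29, 9.36, 9.56 and 9.85 at 0 h. All 5 values at 4 h exceeded all 5 at 0 h, and the rise was 0.81 ± 0.13 (SE; adjusted p = 3.5e-05), or 1.75-fold. HSPB8, a small heat shock protein that works with BAG3 in autophagy, showed the largest rise, 0.99 ± 0.19 (SE; adjusted p = 0.0003), or 1.99-fold. Its signals were 7.75, 7.84, 8.49, 8.16 and 7.68 at 4 h, against 7.11, 7.14, 6.91, 6.78 and 7.02 at 0 h, again without overlap.

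HSPH1, the HSP110 exchange factor, rose by 0.84 ± 0.26 (SE; adjusted p = 0.021), with 10.60 ± 0.22 at 4 h and 9.77 ± 0.47 at 0 h (SD, n = 5). Its groups overlapped through 0 h replicate 5, at 10.57, and the call was lost without 4 h replicate 4 (adjusted p = 0.058) and without 0 h replicate 1 (adjusted p = 0.053) or 4 (adjusted p = 0.06). The aggregation suppressor DNAJB6 rose by 0.30 and DNAJC5 by 0.36. HSPA2 fell by 0.72 and the difference of HSPA1A, also -0.72, did not pass the test (adjusted p = 0.12). The constitutive HSPA8 (0.03), HSP90AA1 (0.10), HSP90AB1 (-0.01) and HSPB1 (0.16) did not pass either, though a dimmer probe set of HSP90AA1 was higher by 0.41 (adjusted p = 0.048), and no TRiC subunit was called. The TRiC subunits among the members differed by at most 0.12 in either direction with all arrays, and CCT5 differed by 0.21 (adjusted p = 0.19) without 4 h replicate 1.

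ATF4, the transcription factor of the integrated stress response, rose by 0.48 ± 0.13 (SE; adjusted p = 0.0077). It had 11.34, 11.33, 11.51, 11.39 and 11.43 at 4 h, against 11.22, 10.20, 11.07, 11.13 and 10.95 at 0 h, where replicate 2 was far below the rest. DDIT3, which encodes CHOP, a factor of prolonged stress that ATF4 can induce, differed by -0.09 (adjusted p = 0.79). DNAJC9 fell by 0.72 ± 0.18 (SE; adjusted p = 0.0042), to 6.53 ± 0.06 at 4 h, against 7.26 ± 0.20 at 0 h (SD, n = 5).

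Without the 4 h array of replicate 1, 8 members rose and 5 fell, against 9.77% and 11.3% of all named genes, and the losses were DNAJB12, DNAJC5 and HSPD1. With only the arrays of the 2 groups in the fit, 5 rose and 3 fell, against 6.89% and 6.29% of all named genes. The calls of DNAJA1, DNAJB9, DNAJC18, DNAJC9, HSPA5 and HSPB8 held under all 18 alternatives, and the other 10 were lost under 1 to 10 of them. Neutrophil markers were higher at 4 h in 3 of 3 cases, with a mean level of 7.46 to 10.11 at 4 h and of 5.91 to 6.71 at 0 h, endothelial markers were higher in 3 of 6 and luteal markers lower in 2 of 5. Their part in these changes was not tested.

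**Figure D3:**
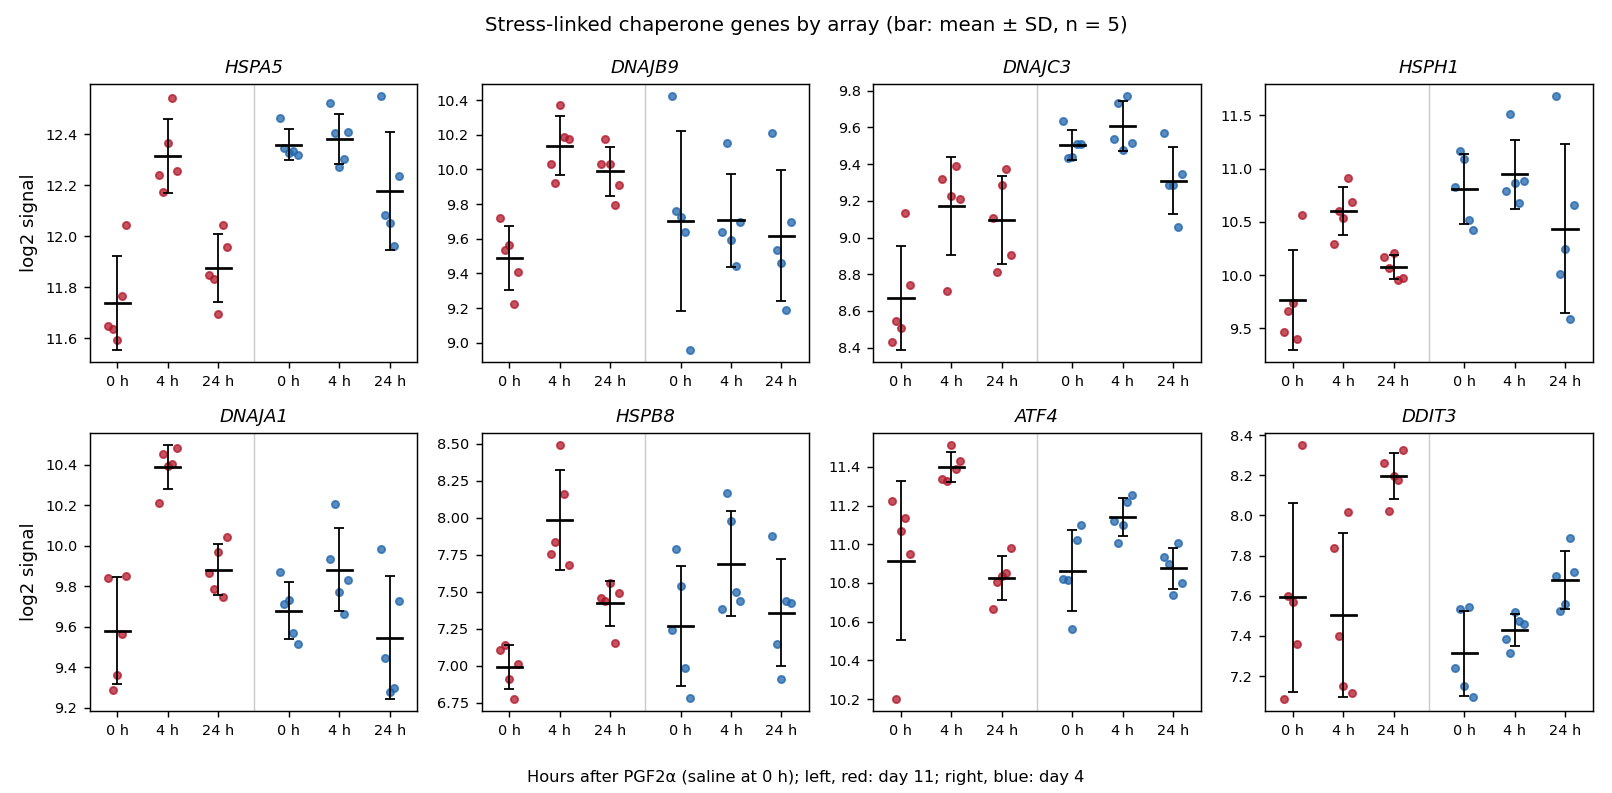
Log2 signal of HSPA5, DNAJB9, DNAJC3, HSPH1, DNAJA1, HSPB8, ATF4 and DDIT3 in each array at 0, 4 and 24 h after PGF2α (left, red: day 11; right, blue: day 4; bar: mean ± SD, n = 5). On day 11 HSPA5, DNAJA1 and HSPB8 are highest at 4 h, and DDIT3 is highest at 24 h, at 8.02 to 8.33.

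Among 102 other pathway genes on day 11 at 4 h, 13 rose and 5 fell, or 12.7% and 4.90%, against 10.1% and 13.1% of all named genes. The change of CRYAB, which encodes αB-crystallin, a small heat shock protein outside the HSPB symbols, was the largest, a rise of 2.26 (adjusted p = 1.9e-06). PPP1R15A, which ends the translational arrest of the stress response, rose by 0.61 (adjusted p = 0.034) and FKBP11 by 0.57 (adjusted p = 0.0055), while PHGDH fell by 0.70 (adjusted p = 0.021).

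At 24 h on day 11 the mitochondrial chaperones fell together, HSPA2 fell further, HSPA1A fell by an amount on which its probe sets disagree, and DDIT3 rose. Of the 62 members 14 fell, or 22.6%, against 20.0% of all named genes, and 6 rose, or 9.68%, against 17.9% of all named genes. By compartment 5 mitochondrial, 5 cytosolic and 2 ER genes fell, and 2 cytosolic and 3 ER genes rose. The comparison used the same 0 h arrays as the one at 4 h. The members' median difference was 0.00 and that of all named genes -0.01, and the share of members that fell was near that of all named genes.

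In mitochondria 5 of 6 members fell, with a class median of -0.45. HSPD1, which builds the HSP60 folding chamber, had 11.97, 12.05, 12.08, 12.04 and 12.04 at 24 h, against 12.73, 12.67, 12.72, 12.63 and 12.91 at 0 h. The 2 groups lay far apart beside their spread, with a difference of -0.70 ± 0.06 (SE; adjusted p = 1e-09), or 1.62-fold. HSPE1, the HSP10 lid of that chamber, had 11.21, 11.28, 11.46, 11.32 and 11.49 at 24 h, against 12.16, 12.19, 12.26, 12.20 and 12.29 at 0 h. Its fall of 0.87 ± 0.07 (SE; adjusted p = 6.5e-11) was the largest of the class, 1.83-fold.

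HSPA9, the HSP70 of the mitochondrial matrix, had 9.997, 10.39, 10.24, 10.25 and 10.37 at 24 h, against 10.70, 10.56, 10.79, 10.73 and 10.95 at 0 h. The groups did not overlap, and the difference was -0.49 ± 0.08 (SE; adjusted p = 1.1e-05). DNAJC11, a J-protein linked to the cristae, fell by 0.41 and DNAJA3, a J-protein of the matrix, by 0.29. DNAJC19, a J-protein of the import motor, differed by 0.19 and did not pass the test (adjusted p = 0.19). HSPE1, HSPD1 and HSPA9 had also fallen between 4 h and 24 h, with differences of -0.74, -0.51 and -0.35, all without overlap, while at 4 h against 0 h the smaller difference of HSPD1 (-0.19) alone had passed.

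Of 8 other mitochondrial folding and protease genes none rose at 24 h, against 17.9% of all named genes. In this group 5 fell (62.5%), against 20.0% of all named genes. These were YME1L1 (-0.58) and GRPEL1 (-0.54), the exchange factor of HSPA9, and CLPP, SPG7 and AFG3L2 (-0.48, -0.48 and -0.24), with YME1L1, CLPP, SPG7 and AFG3L2 encoding protease subunits. The 5 luteal steroidogenic markers were all lower, with a mean level of 9.83 to 10.72 at 24 h and of 11.91 to 12.23 at 0 h. Neutrophil markers were higher in 3 of 3, macrophage markers in 4 of 7, T and NK cell markers in 5 of 5 and fibroblast markers in 1 of 5, and endothelial markers were lower in 2 of 6. Their part in the mitochondrial fall was not tested.

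**Figure D4:**
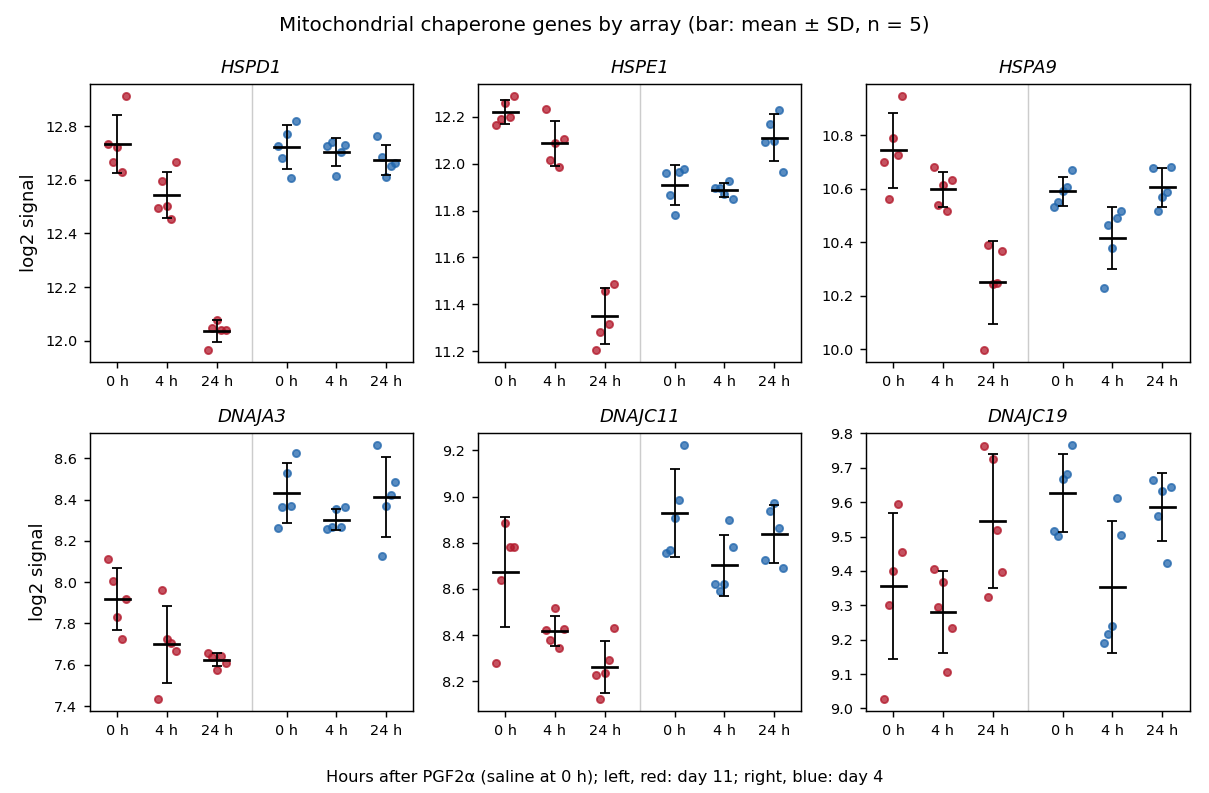
Log2 signal of the 6 mitochondrial members in each array at 0, 4 and 24 h after PGF2α (left, red: day 11; right, blue: day 4; bar: mean ± SD, n = 5). At day 11, 24 h HSPD1 lies at 11.97 to 12.08 and HSPE1 at 11.21 to 11.49, below every other array of the series.

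In the cytosol 5 of 16 genes of the HSP70 system fell and 2 rose, or 31.2% and 12.5%, against 20.0% and 17.9% of all named genes. No HSP90, TRiC or small heat shock member was called. HSPA2 had 7.41, 7.76, 7.63, 8.01 and 7.47 at 24 h, against 9.40, 9.19, 8.62, 8.31 and 9.48 at 0 h. The groups did not overlap, and the fall was 1.34 ± 0.19 (SE; adjusted p = 1.8e-06), or 2.54-fold. HSPA12B had 7.22 ± 0.13 at 24 h and 7.84 ± 0.11 at 0 h (SD, n = 5), a difference of -0.61 ± 0.12 (SE; adjusted p = 0.00019), and the endothelial markers averaged 7.06 to 7.23 at 24 h and 7.17 to 7.43 at 0 h. DNAJB2 (-0.46) and HSPBP1 (-0.25) fell, a dimmer probe set of HSPA4 fell by 0.90 where the one used differed by -0.18, and DNAJC12 (0.46), a J-protein of the aromatic amino acid hydroxylases, and DNAJB6 (0.30) rose.

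HSPA1A had 7.83, 7.62, 7.71, 7.73 and 7.70 at 24 h, against 9.75, 9.70, 9.91, 9.38 and 9.60 at 0 h, the largest fall of any member, with a difference of -1.95 ± 0.32 (SE; adjusted p = 2.1e-05), or 3.86-fold. The value is uncertain, because 6 probe sets carry this symbol under 2 gene identifiers and near-identical HSP70 copies can share probes. The other 5 differed by -0.55 to -0.07, 1 of them was called, and the mean of all 6 differed by -0.66 (adjusted p = 0.034). On untreated day 11 against day 4 the 6 probe sets ran between -2.21 and 0.85, and the mean of them gave -0.38 in place of the 0.85 of the brightest.

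In the ER, HSPA5 was at 11.88 ± 0.13 at 24 h and 11.74 ± 0.18 at 0 h (SD, n = 5), a difference of 0.14 (adjusted p = 0.34), and it was lower at 24 h than at 4 h by 0.44 ± 0.10 (SE; adjusted p = 0.0014). DNAJB9 (0.50), DNAJC3 (0.43) and DNAJB12 (0.25) were above 0 h, and CANX (-0.30) and DNAJC18 (-0.32) below it. HERPUD1, an ER degradation adaptor that stress induces, fell by 0.47 between 4 h and 24 h (adjusted p = 0.038), a call that was lost under 7 of 18 alternatives, with an adjusted p up to 0.1.

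DDIT3 and ATF4 took opposite courses between 4 h and 24 h. DDIT3 had 8.26, 8.02, 8.19, 8.18 and 8.33 at 24 h, against 7.84, 7.40, 7.15, 8.02 and 7.11 at 4 h and 7.09, 7.60, 7.57, 7.36 and 8.35 at 0 h. It was higher at 24 h than at 0 h by 0.60 ± 0.17 (SE; adjusted p = 0.0068), although 1 control array reached the level of the 24 h arrays, and higher than at 4 h by 0.69 ± 0.17 (SE; adjusted p = 0.0029). ATF4 had 10.67, 10.80, 10.83, 10.85 and 10.98 at 24 h, below all 5 arrays at 4 h, with a difference of -0.57 ± 0.13 (SE; adjusted p = 0.0012).

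HSPB8 and DNAJA1 also came down between 4 h and 24 h, with differences of -0.56 and -0.51, and neither was called at 24 h against 0 h (0.43, adjusted p = 0.086, and 0.30, adjusted p = 0.077). Over the members, 15 were lower and 5 higher at 24 h than at 4 h, or 24.2% and 8.06%, against 14.3% and 16.2% of all named genes. Without 4 h replicate 1 these were 15 and 4, or 24.2% and 6.45%, against 13.7% and 14.6% of all named genes. HSPA8 was then called lower (adjusted p = 0.042), and CANX and CCT4 lost their calls (adjusted p = 0.074 and 0.15). Luteal markers were lower at 24 h in 5 of 5 cases and endothelial markers in 3 of 6. Fibroblast markers were higher in 4 of 5, macrophage markers in 2 of 7, T and NK cell markers in 2 of 5 and neutrophil markers in 1 of 3. Their part was not tested. Of 18 called members followed between 4 h and 24 h, 11 calls held under all 18 alternatives and 7 (CANX, CCT4, HERPUD1, HSPA1A, HSPA2, HSPB8 and SEL1L) were lost under 1 to 11. Outside the named compartments DNAJC24, which helps to make the diphthamide residue of elongation factor 2, fell at 24 h against 0 h by 0.64 ± 0.09 (SE; adjusted p = 1.8e-06), and its 2 dimmer probe sets differed by -0.67 and -0.72. DNAJC27 fell by 0.59. Of 17 called members followed at 24 h against 0 h, 10 calls held under all 18 alternatives, among them those of HSPD1, HSPE1, HSPA9, HSPA2 and DDIT3, and 7 were lost under 1 to 12, most often DNAJB12 and DNAJB9.

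Among the 102 other pathway genes, 24 fell and 16 rose at 24 h on day 11, or 23.5% and 15.7%, near the shares of all named genes given above. CRYAB was higher by 2.16 (adjusted p = 1.1e-06) and NUPR1, a stress-induced chromatin protein, by 1.81 (adjusted p = 6.8e-06). PHGDH and PSAT1, successive enzymes of serine synthesis, fell by 2.01 (adjusted p = 2.1e-08) and 1.49 (adjusted p = 8.5e-08).

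On day 4 few members differed from 0 h after the same treatment. At 4 h none rose (limma; 9 members had an unadjusted p under 0.05 in either direction), where 3.29% of all named genes did, and DNAJC9 alone fell, or 1.61%, against 1.99% of all named genes. DNAJC9 had 7.73, 7.95, 7.67, 8.25 and 8.07 at 4 h, against 8.64, 8.50, 8.69, 8.54 and 8.37 at 0 h. The groups did not overlap, with a difference of -0.62 ± 0.18 (SE; adjusted p = 0.043). Same-numbered arrays of these 2 groups deviated alike only weakly (correlations of 0.146 to 0.214), and the labels state no pairing. With the replicate number as a block in limma no member was called, DNAJC9 having an adjusted p of 0.058 (10 members had an unadjusted p under 0.05). When 1 array was left out, the call held only without 4 h replicate 4. HSPA5 differed by 0.02 at 4 h, DNAJA1 by 0.20, HSPB8 by 0.42 and ATF4 by 0.28, with adjusted p of 0.97, 0.54, 0.26 and 0.3. Cell markers moved on day 4 as well. At 4 h endothelial markers were higher in 2 of 6 cases, macrophage markers in 1 of 7 and neutrophil markers in 1 of 3. Luteal markers were lower in 1 of 5.

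HSPA1A, HSPH1 and DNAJB1, the J-protein HSP40, were high together in 1 array of day 4 at 4 h, as was seen on inspection of their values. Replicate 2 had 9.92 for HSPA1A, 11.51 for HSPH1 and 10.06 for DNAJB1, and the other 4 arrays reached 8.50, 10.88 and 9.38 at most. These 3 genes are known targets of heat shock factor 1, whose part in this array was not tested. None of them was called at 4 h with or without that array.

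At 24 h on day 4, 2 members rose and 2 fell, or 3.23% each way, against 3.03% and 4.73% of all named genes. DNAJC18 rose by 0.41 ± 0.11 (SE; adjusted p = 0.024) and SEL1L by 0.29 ± 0.08 (SE; adjusted p = 0.027), both in the ER membrane. SEL1L had 10.12, 10.05, 10.02, 10.07 and 10.03 at 24 h, against 9.80, 9.88, 9.82, 9.57 and 9.78 at 0 h, without overlap. DNAJC9 fell by 0.86 ± 0.18 (SE; adjusted p = 0.0059) and HSPA14 by 0.32 ± 0.10 (SE; adjusted p = 0.049). In the untreated glands DNAJC18 and SEL1L were also higher, and DNAJC9 and HSPA14 also lower, on day 11 than on day 4. Without saline animals at 24 h, PGF2α and the added day of gland age cannot be told apart here.

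Replicate 1 of this group carried the highest HSPA1A signal of all arrays, 11.13, and the highest HSPH1, 11.68, where the other 4 arrays of the group ran from 8.71 to 9.44 and from 9.59 to 10.66. Without that array 10 members were called on day 4 at 24 h, 2 higher and 8 lower, against 4.81% and 7.68% of all named genes. The 8 were CCT5 (-0.40), CCT6A (-0.39), CCT8 (-0.26), HSP90AB1 (-0.30), HSPH1 (-0.68), HSPA14 (-0.40), DNAJC5 (-0.44) and DNAJC9 (-1.04). Without 24 h replicate 2 or 4, or without 0 h replicate 4, 1 member was called, and without 0 h replicate 1 or 3 there were 2. None of the 6 mitochondrial genes was called at 4 h or 24 h against 0 h on day 4. HSPD1 lay between 12.61 and 12.82 in all 15 day 4 arrays, HSPE1 between 11.78 and 12.23 and HSPA9 between 10.23 and 10.68, and HSPE1 was higher at 24 h than at 4 h by 0.22 (adjusted p = 0.023).

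Between 4 h and 24 h on day 4, 5 members were higher and 6 lower at 24 h, or 8.06% and 9.68%, against 10.2% and 9.84% of all named genes. Without 24 h replicate 1 there were 15 calls, 3 higher and 12 lower, or 4.84% and 19.4%, against 10.4% and 11.5% of all named genes. HSPA5 (-0.30), HSP90B1 (-0.28), HSP90AA1 (-0.19), CCT6A (-0.35), DNAJA1 (-0.44) and HSPH1 (-0.82) were then called lower, and HSPA1A (0.98 with all arrays) lost its call (adjusted p = 0.14), as did SEL1L. The 11 calls became 5 without 24 h replicate 2 or 4, 6 without 4 h replicate 5 and 7 without 4 h replicate 4. HSPA2 was higher at 24 h by 0.85 ± 0.19 (SE; adjusted p = 0.0022), with 8.70, 8.61, 8.71, 8.54 and 8.96 at 24 h, against 7.502, 7.93, 8.09, 8.002 and 7.76 at 4 h. HSPA14 was lower by 0.45 and DNAJC18 higher by 0.54, and these 3 calls held under all 18 alternatives. Between 4 h and 24 h luteal markers were higher in 3 of 5 cases, endothelial markers lower in 3 of 6 and neutrophil markers lower in 1 of 3. The part of cell markers in the day 4 changes was not tested. Of the 102 other pathway genes, SLC3A2, a subunit of amino acid transporters, rose at 4 h by 0.58 (adjusted p = 0.0017), and CRELD2 fell at 24 h (-0.60, adjusted p = 0.042). FKBP5, a co-chaperone of steroid receptors, was also called lower at 24 h, but its mean signals of 4.13 at 24 h and 4.54 at 0 h lay near the 30th percentile of all probe sets, so no size is given.

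**Figure D5:**
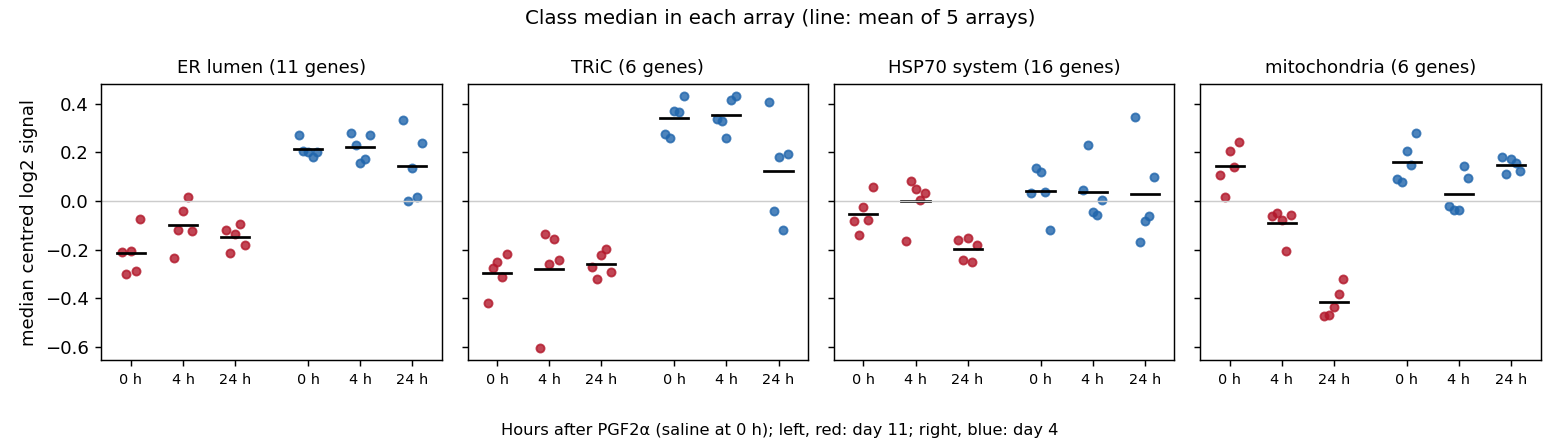
Median over the genes of a class of the log2 signal centred per gene, in each array at 0, 4 and 24 h after PGF2α (left, red: day 11; right, blue: day 4; line: mean of 5 arrays). The mitochondrial median lies between -0.47 and -0.32 at day 11, 24 h and between 0.01 and 0.24 at day 11, 0 h, while the TRiC median is lower on day 11 than on day 4 at 0 h.

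The change from 0 h was compared between the days through the interaction, day 11 minus day 4. With saline animals at 0 h only, a different response to PGF2α and a different change with time cannot be told apart. At 24 h the mitochondrial trio HSPE1, HSPD1 and HSPA9 and the HSP70 relatives HSPA1A, HSPA2 and HSPA12B changed more negatively on day 11. Over the members 9 interactions were negative and 6 positive, or 14.5% and 9.68%, against 15.0% and 14.8% of all named genes, so the count did not exceed the background.

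HSPE1 differed by -1.07 ± 0.10 (SE; adjusted p = 5.2e-09), from changes of -0.87 on day 11 and 0.20 on day 4. HSPD1 differed by -0.65 ± 0.09 (SE; adjusted p = 3.2e-06) and HSPA9 by -0.51 ± 0.11 (SE; adjusted p = 0.0009). For HSPA2 the interaction was -1.89 ± 0.26 (SE; adjusted p = 4.6e-06), with -1.34 on day 11 and 0.54 on day 4. HSPA1A gave -2.67 ± 0.45 (SE; adjusted p = 5.8e-05) from the brightest probe set, and the mean of its probe sets gave -0.60 and lost the call (adjusted p = 0.2). HSPA12B (-0.76), DNAJC18 (-0.72), DNAJC24 (-0.65) and DNAJB2 (-0.58) were the other negative ones. The 5 luteal steroidogenic markers also had negative interactions, with a median of -1.68, neutrophil markers had positive ones in 2 of 3 cases and macrophage markers in 2 of 7, and 1 of 6 endothelial markers had a negative one. Their part in these interactions was not tested.

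Positive interactions at 24 h were those of DNAJC12 (0.76), DNAJC3 (0.62), DNAJC5 (0.60), HSPA14 (0.54), HSP90AB1 (0.40) and DNAJB6 (0.38). HSPA14, HSP90AB1 and DNAJC5 differed from 0 h by 0.22, 0.17 and 0.25 on day 11 and by -0.32, -0.23 and -0.35 on day 4. Without day 4, 24 h replicate 1, 24 members had an interaction, 15 positive and 9 negative, or 24.2% and 14.5%, against 15.8% and 14.8% of all named genes, and CCT4, CCT6A, CCT8, HSPA5, HSP90B1 and HSPH1 were among those added. The calls of 12 of the 15, the mitochondrial trio among them, held under all 28 alternatives.

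At 4 h 1 interaction was called, that of HSPA5, or 1.61% of members, against 0.939% of all named genes, and none was negative, where 0.459% of all named genes were. HSPA5 changed by 0.55 ± 0.14 more on day 11 than on day 4 (SE; adjusted p = 0.047), with changes of 0.58 on day 11 and 0.02 on day 4. This call was lost in 17 of 28 alternatives, 16 of which left out 1 array, with an adjusted p up to 0.092 there. It held without day 11, 4 h replicate 1 or 2, day 11, 0 h replicate 5 or day 4, 4 h replicate 1, and the mean of the HSPA5 probe sets gave 0.31 (adjusted p = 0.38). DNAJB9, DNAJA1 and HSPH1 had interactions of 0.64, 0.61 and 0.70 that did not pass the test, at an adjusted p of 0.3, 0.1 and 0.48. Among the other pathway genes CRYAB alone was called, at 1.71 (adjusted p = 0.035).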

How the data were processed

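RNA from 30 heifers was measured on 1 array each. Per the submitters' processing notes, the deposited log2 values come from RMA, which corrects background, normalizes arrays together and summarises probe sets; its version is not given in the sources used here. Values were used as deposited, after leaving out 112 control probe sets. Platform annotation gave 1 symbol to 13292 of 24016 probe sets, and 1 probe set that DNAJC2 shares with another gene was left out. All 62 members matched a RefSeq gene by Entrez number; 42 had 1 probe set and 20 had several.

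Group means of all 30 arrays were fitted in limma 3.58.1 (R 4.3.3) with empirical Bayes moderation and Benjamini-Hochberg adjustment over all probe sets in each of 9 contrasts; the fit was tested on simulated data. Levels were not compared between probe sets. The number of arrays limits the precision. Animals are separate, so the spread is between animals.

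Members, classes and lists were chosen with earlier results of these data known. Genes named were, per contrast, the 10 largest called rises and falls and a panel of 31 genes, 27 of them measured, plus the 4 largest called changes among other pathway genes. Members named to complete a class and further pathway genes of the mitochondria were chosen after their values were seen. Same-numbered arrays were checked for pairing: deviations correlated at 0.146 to 0.214 for day 4, 4 h against 0 h, all over 0.1, and not in every pair elsewhere. For day 11, 4 h against 0 h they correlated at 0.063 to 0.233. There all 5 arrays at 4 h correlated best with the same-numbered array at 0 h, as did 2 on day 4. With the replicate block day 11, 4 h against 0 h gave 16 calls, 9 higher and 7 lower. No sequences are shown.

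The fit was repeated with each array omitted, after quantile normalization or centring of arrays on their medians, without the 30% dimmest probe sets, with a variance trend and robust moderation, array weights or a replicate block, on the arrays of a contrast alone, and with probe sets averaged per gene.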

Additional observations from a re-analysis of the deposited data

Results flagged for a closer look

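In 23 of 276 sets of 5 arrays (46 named genes in 6 groups), 1 array stood apart from the other 4 by Dixon's test, where chance gives about 1 in 20. The array of day 11, 4 h replicate 1 was low for CALR (9.98), HSP90B1 (11.98), HSPA8 (12.05), HSP90AB1 (11.86) and PDIA3 (11.13) and high for DNAJB12 (8.81). The array of day 4, 4 h replicate 2 was high for HSPA1A (9.92), HSPH1 (11.51) and DNAJB1 (10.06) and low for DNAJB12 (8.04). In day 4, 24 h replicate 1, HSPB1 (13.04) and HSP90AA1 (12.92) were high. In day 4, 0 h replicate 1, HSPA5 was high (12.46) and HSPB1 (12.48) and HSPBAP1 (4.93) were low, and in replicate 3 of that group CCT6A was high (11.20).

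On day 11 at 0 h ATF4 (10.20) and HSP90AB1 (11.93) were low in replicate 2, DNAJC14 was high in replicate 3 (8.37) and HSPH1 was high in replicate 5 (10.57). At 4 h DNAJC3 was low in replicate 2 (8.71), and at 24 h HSP90AB1 was low in replicate 2 (12.15) and CANX in replicate 4 (11.43).

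The change from 0 h differed between the days for 1 gene at 4 h and 15 at 24 h, by the limma interaction test on day 11 minus day 4. HSPA5 differed by 0.55 at 4 h. At 24 h the values were -2.67 for HSPA1A, -1.89 for HSPA2, -1.07 for HSPE1, -0.76 for HSPA12B, -0.72 for DNAJC18, -0.65 for HSPD1, -0.65 for DNAJC24, -0.58 for DNAJB2 and -0.51 for HSPA9. They were 0.76 for DNAJC12, 0.62 for DNAJC3, 0.60 for DNAJC5, 0.54 for HSPA14, 0.40 for HSP90AB1 and 0.38 for DNAJB6.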

How the results depend on the processing

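The counts of called members stayed within 1.5 times under quantile normalization, subtraction of array medians, omission of the dimmest 30% and a variance trend. With array weights day 4 gave 2 calls at 4 h and 9 at 24 h, and the 4 h interaction gave 2. With the arrays of the contrast only, day 4, 24 h against 0 h gave 0 (limma; 18 at an unadjusted p under 0.05), day 4, 24 h against 4 h gave 6 and day 11, 4 h gave 8. In these fits 0.535% of all named genes were higher and 0.262% lower for day 4, 24 h against 0 h. The shares were 10.6% and 8.40% for day 4, 24 h against 4 h, and 6.89% and 6.29% for day 11, 4 h. The mean of a gene's probe sets gave 0 for the 4 h interaction (10 unadjusted) and turned HSPA1A on day 11 against day 4 to -0.38. The replicate block gave 0 on day 4 at 4 h (10 unadjusted) and moved no other count by over 1.5 times. Leaving out 1 array gave 0 to 1 calls on day 4 at 4 h (9 arrays gave 0, with 4 to 10 unadjusted), 1 to 10 at 24 h and 5 to 15 for 24 h against 4 h. On day 11 it gave 12 to 17 at 4 h, 15 to 19 at 24 h and 14 to 20 for 24 h against 4 h, and day 11 against day 4 gave 31 to 36. Interactions numbered 0 to 1 at 4 h (15 arrays gave 0, with 8 to 12 unadjusted) and 14 to 24 at 24 h. The cause of these changes was not tested. Dim probe sets such as HSPB3 limit what can be seen.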
